A study of Drosophila melanogaster with 13 samples.

Results

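In an RNA sequencing study of one identified fly motoneuron, 6 libraries labelled for RNA interference (RNAi) against Shal were compared with the 7 libraries that carried no such label. The cell was MN1-Ib, a glutamatergic motoneuron of the Drosophila melanogaster larva. Membership was read from the labels alone: 3 libraries labelled Shal RNAi and 3 labelled Notch+Shal RNAi, 6 of 13 in all, against 3 control and 4 Notch RNAi libraries. The 6 are called Shal-labelled below, and the 7 are called the other libraries. In every group the MN1-Ib-GAL4 driver expressed the membrane reporter mCD8:GFP under UAS control, so the controls (MN1>GFP) carried the driver and reporter without an RNAi construct. The Shal RNAi group added the Shal construct, the Notch+Shal RNAi group both constructs, and the Notch RNAi group the Notch construct alone. All cells came from larvae of instar 3. The cytoplasm was drawn into a patch pipette, and 4 to 8 cells from 1 or 2 larvae were pooled in each reaction. The study counts these as independent reactions, and the labels do not say whether reactions shared larvae, which means that a p-value here reflects reaction-to-reaction spread. No label names the RNAi lines, the sex of the larvae or their age in hours.

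Shal encodes a Kv4-type potassium channel that carries the somatic and dendritic A-type current, a fast, inactivating outward current that delays and spaces firing. In fly motoneurons this current is known for homeostatic exchange with the related channel Shaker, and for adjustment of other conductances when one channel is lost. In RNAi a double-stranded RNA expressed from a transgene is cut into short RNAs that direct cleavage of the matching messenger RNA. The comparison asks which transcripts of MN1-Ib differ whenever the Shal construct is labelled as present, with Notch RNAi status held as a covariate.

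Levels are normalised CPM, the CPM of a library after scaling by its TMM factor. Summed levels of lists, and marker levels given as CPM, are without that scaling. Fold changes are log2 and run Shal-labelled over other. The main test was the quasi-likelihood test of edgeR, in which all 13 libraries share their estimate of spread. Adjusted p-values are Benjamini-Hochberg over all 8908 genes tested, and an unadjusted p is that of the same edgeR test.

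Shal itself was not lower in the libraries labelled for its knockdown. It stood at 93.7, 107 and 217 normalised CPM in Shal RNAi 1 to 3 and at 70.9, 30.0 and 21.5 in Notch+Shal RNAi 1 to 3. The other libraries held 4.73, 84.3 and 36.3 in control 1 to 3 and 54.3, 61.0, 53.8 and 14.8 in Notch RNAi 1 to 4. All 3 Shal RNAi libraries lay above every other library, while the 3 Notch+Shal RNAi libraries lay within their range. The mean was 90.1 ± 71.0 in the Shal-labelled libraries (SD, n = 6) and 44.2 ± 27.6 in the others (SD, n = 7). The log2 fold change of Shal (FBgn0005564, chromosome 3L, 19566851 to 19584568, minus strand, BDGP6.54) was 0.74 with an SE of 0.69 and a 95% interval of -0.69 to 2.16. The edgeR test was not passed (adjusted p = 0.999). Permuting Shal RNAi status exactly within Notch RNAi status, 2-sided, gave an exact p = 0.114 (adjusted p = 0.354 over 4 values), where 700 arrangements allow 0.00286 at the least. Groups are therefore given by label throughout, and the position of reads within Shal was not tested. Leaving out single libraries moved the value without turning its sign, to 0.38 without control 1, 0.44 without Shal RNAi 3 and 1.03 without Notch+Shal RNAi 3.

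N, the gene of the Notch receptor, holds no contrast here, since both arms contain Notch RNAi libraries. It ran from 2.08 to 344 normalised CPM in the Shal-labelled libraries (median 16.01) and from 19.1 to 209 in the others (median 25.5), with a log2 fold change of -0.54 (SE 1.02, adjusted p = 0.999 in edgeR). Its mean rested on Notch+Shal RNAi 3, control 3 and Notch RNAi 4, at 344, 182 and 209, while no other library passed 29.2. The sign turned without control 3 (0.17) or Notch RNAi 4 (0.13). For nerfin-1, a zinc finger transcription factor of differentiated neurons, the Shal-labelled libraries held 0 to 103 (median 14.1) and the others 9.62 to 233 (median 46.2). The arms overlapped, and the log2 fold change of -1.62 (SE 0.89) did not pass (adjusted p = 0.999 in edgeR, exact permutation p = 0.177).

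The labels could be read against a pair of genes used to mark fly transgenes. The gene w (white, FBgn0003996, chromosome X, 2790599 to 2796466) encodes an eye pigment transporter and, as a mini-gene, marks many transgene insertions. It stood at 108, 375 and 276 normalised CPM in Shal RNAi 1 to 3 and at 125, 602 and 14.4 in Notch+Shal RNAi 1 to 3. Control 1 to 3 held 3.24, 10.5 and 7.80, and Notch RNAi 1 to 4 held 5.68, 0.623, 7.58 and 447. Thus each of the 6 Shal-labelled libraries lay above 6 of the 7 others, and Notch RNAi 4 lay above 5 of the Shal-labelled libraries. Notch+Shal RNAi 3 was the lowest of the Shal-labelled libraries, and these 2 libraries stood apart from their groups. The log2 fold change of w was 3.03 (SE 1.59) and did not pass in edgeR (adjusted p = 0.999). Nor did it pass in DESeq2 (adjusted p = 0.448) or voom (adjusted p = 0.997). It passed on all 13 libraries in edgeR without the filter on low counts (adjusted p = 0.0108). In that fit the SE was 0.72 and the log2 fold change again 3.03. Without Notch RNAi 4 it was 5.42 and w was the 1 gene that rose (adjusted p = 0.0210 in edgeR), and without both libraries it was 5.64 (adjusted p = 0.00281), a choice made after w was seen and so no independent support. Without Notch RNAi 4, 8 genes (0.0898% of those tested) had all 6 Shal-labelled libraries above the other 6, and 13 (0.146%) had all 6 below. The gene y (yellow, X, 356509 to 361245), a body pigment gene also used as a marker, was higher in every library with a Notch label than in every library without one. It held 352 to 2071 in Notch+Shal RNAi and 446 to 3290.1 in Notch RNAi, but 5.35 to 81.7 in Shal RNAi and 22.3 to 64.8 in control. No label says which insertion carries w, and whether any library is mislabelled was not tested. Both genes were singled out from a list after their values were seen.

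**Figure D1:**
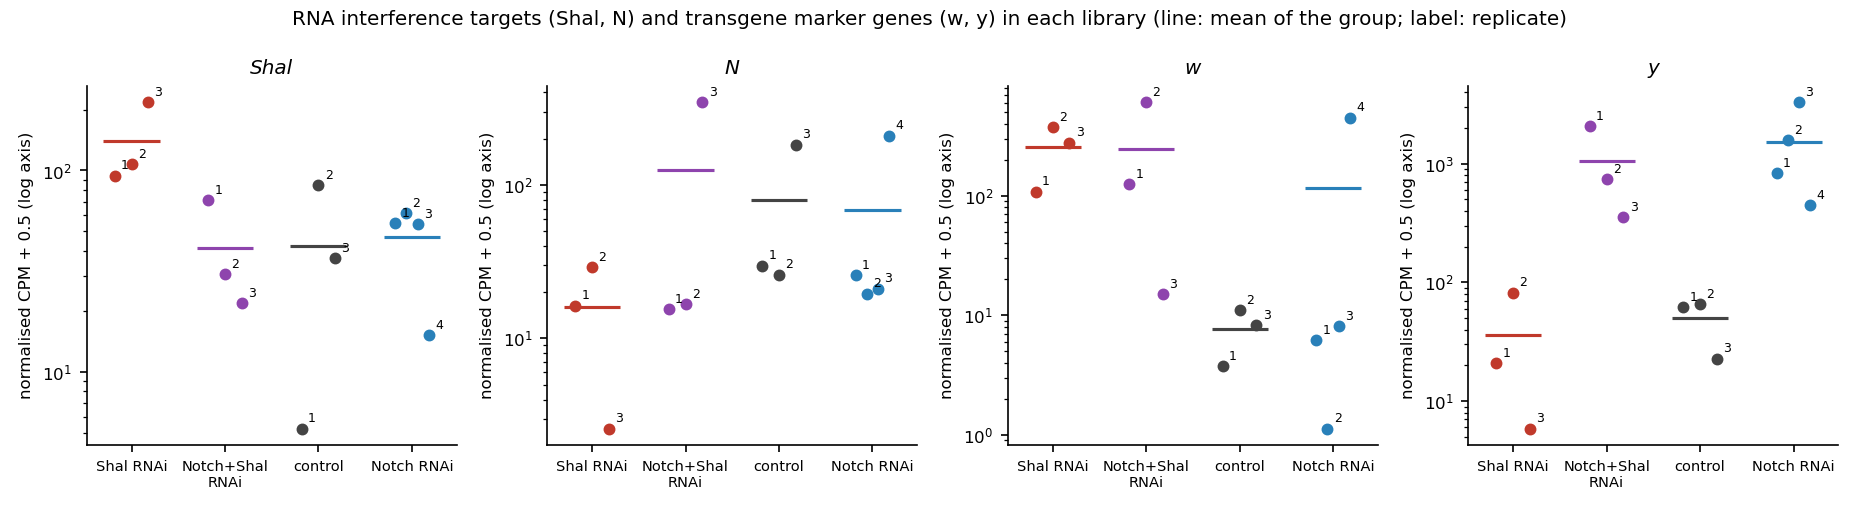
Normalised CPM plus 0.5 (log axis) of the RNAi targets Shal and N and of the marker genes w and y in each of the 13 libraries, with points numbered by replicate and a line at the mean of each group. For w, the 6 Shal-labelled libraries sit at 14.4 CPM or more and 6 of the others at 10.5 or less, with Notch RNAi 4 at 447, while Shal overlaps between the arms.

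Some facts of the libraries bear on every comparison below. Total counts ran from 4331405 to 9066553 in the Shal-labelled libraries and from 3783100 to 9319116 in the others, and 7364 to 9272 genes against 7579 to 9839 had a count (exact permutation p = 0.473 for the difference of means, -330.2 genes). VGlut, which loads glutamate into vesicles, ran from 401 to 2841 CPM, and every library also held eve, zfh1, twit, elav, brp, nSyb and Syt1. The levels of these markers were not uniform. The gene eve stood at 930 CPM in Notch+Shal RNAi 2 and 273 in Notch RNAi 4, and at 87.8 or less in every other library. The level of twit ran from 61.5 CPM in Notch RNAi 1 to 3741 in control 2. Of the other genes on the list of motoneuron markers, wit was also present in every library and tup had counts in 5 (up to 23.5 CPM, in Notch RNAi 4). Lim3 reached at most 0.482 CPM and exex had no count. Markers of other neurons were not all absent. ChAT, of cholinergic neurons, reached at most 0.244 CPM, but ple, of dopaminergic neurons, had counts in all 13 libraries (0.264 to 498 CPM) and VGAT, of GABAergic neurons, in 12 (up to 62.7), while Gad1 reached 14.5. The summed level of the 8 markers of other neurons was 0.445 to 212 CPM in the Shal-labelled libraries and 7.401 to 561 in the others, and their part in the results was not tested. Transcripts of muscle, hemocytes and fat body were present in every library. Shal RNAi 1 and 3 stood apart, with TMM factors of 0.569 and 0.621 against 0.936 to 1.41 in the other 11, and with Notch+Shal RNAi 3 they held the most RNA from short transcripts. In such pools fewer cells of a type and less RNA per cell cannot be told apart.

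No gene differed between the 6 and the 7 libraries after adjustment. In edgeR 0 of 8908 genes (0%) passed, with a lowest adjusted p of 0.999, and 382 genes (4.29%) had an unadjusted p under 0.05, where 445.4 would be expected by the threshold alone. Of these, 230 (2.58%) were higher and 152 (1.71%) lower in the Shal-labelled libraries. DESeq2 called 19 genes, of which 12 were higher and 7 lower, and edgeR without the filter on low counts called 54, of which 32 were higher and 22 lower. Counts of called list members below are those of edgeR with the filter, and calls by the other fits are named where there were any. With limma, voom called 0 (315 at an unadjusted p under 0.05), and 0 with quality weights per library (401). The precision was low: the median SE of the log2 fold change was 1.03, or 0.67 over the 4973 genes with a mean of at least 20 CPM. The 95% interval lay wholly within 1 of 0 for 1.52% of genes, so most genes could differ by more than a doubling either way without passing. A low count of calls is therefore no measure of how alike the arms are.

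The main effect averages a pair of contrasts whose fold changes did not go together across genes. With the low precision given above, unlike effects and spread between reactions cannot be told apart. Shal RNAi against control and Notch+Shal RNAi against Notch RNAi share no library, and their fold changes had a Spearman rho of -0.024 over 8908 genes, given as a description across genes, which are not independent. They had the same sign in 48.6% of genes, and in 50.2% of the 4973 better expressed ones. Unadjusted p-values under 0.05 numbered 905 (10.2%) for Shal RNAi against control and 258 (2.9%) for Notch+Shal RNAi against Notch RNAi, with 30 genes in both, 20 of them in the same direction. The interaction, the difference between those contrasts, called 0 genes in edgeR (lowest adjusted p 0.554), with 710 (7.97%) at an unadjusted p under 0.05, and DESeq2 called 124. The median over all genes was 0.14 with and -0.33 without Notch RNAi, which is the background for the medians of lists in each contrast.

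**Figure D2:**
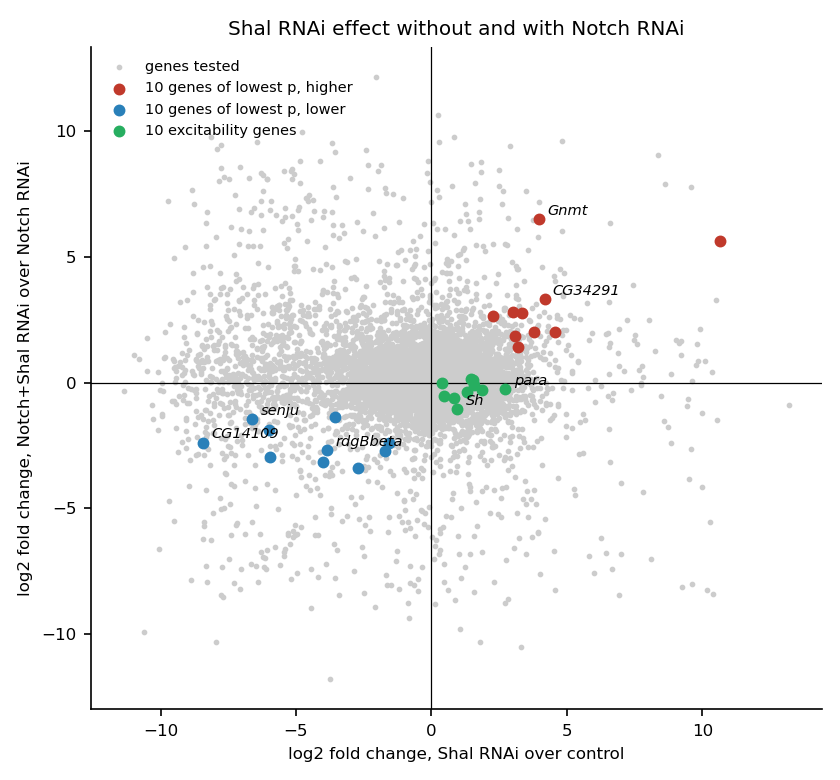
Log2 fold change of Shal RNAi over control (horizontal axis) against that of Notch+Shal RNAi over Notch RNAi (vertical axis) for the 8908 genes tested, with the genes of lowest p in the main effect and 10 excitability genes in colour. The cloud shows no common slope (rho -0.024), and para lies at 2.73 without Notch RNAi and -0.27 with it.

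The 10 genes with the lowest p in each direction, at a mean of 20 CPM or more in the higher arm, are described as values, since none passed in edgeR. DESeq2 called 7 of the 10 higher and 4 of the 10 lower genes, and edgeR without the filter on low counts called 10 and 5. The higher ones with a known product were Gnmt, the glycine N-methyltransferase that consumes S-adenosylmethionine, and Mtkl, a gene named for its likeness to the antimicrobial peptide Metchnikowin. Gnmt (chromosome 3R, 12674608 to 12676084) held 115, 41.8 and 72.6 normalised CPM in Shal RNAi and 0.954, 5.43 and 42.5 in Notch+Shal RNAi, against 3.61, 11.0 and 0.108 in control and 0.142, 0, 0.261 and 0.260 in Notch RNAi. Of the Shal-labelled libraries 4 lay above all others, and Notch+Shal RNAi 1 and 2 lay within the range of control. The log2 fold change was 5.24 (SE 1.22, unadjusted p = 3.41e-04, adjusted p = 0.999 in edgeR). It had the lowest adjusted p in DESeq2 along with the scavenger receptor Sr-CI, 4.54e-04 for both. Reads of Gnmt may be shared with CG43630 on the other strand.

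Mtkl held 328, 60.8 and 594 normalised CPM in Shal RNAi and 53.4, 3.33 and 219 in Notch+Shal RNAi, against 20.04, 10.6 and 11.3 in control and 44.5, 7.97, 34.7 and 3.72 in Notch RNAi. Of the Shal-labelled libraries 5 lay above every other library, and Notch+Shal RNAi 2 lay below them all. CG34291, the gene of lowest p, stood at 703, 208 and 1256 in Shal RNAi and 50.3, 2.19 and 93.2 in Notch+Shal RNAi, against 11.2 to 92.8 in control and 0.284 to 12.5 in Notch RNAi (log2 fold change 3.73, SE 0.85, adjusted p = 0.999 in edgeR and 0.00194 in DESeq2). There 4 Shal-labelled libraries lay above all others and the other 2 within their range. In 9 of these 10 genes Notch+Shal RNAi 2 was the lowest of the Shal-labelled libraries, and Shal RNAi 1 or 3 was the highest in all 10.

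The other 7 higher genes were CG43114, CG32115, CG8157, CG33494, CG16704, CG34200 and CG3348, with log2 fold changes of 2.28 to 7.71. DESeq2 called CG43114, CG32115, CG33494 and CG16704 of these, along with Mtkl (adjusted p = 0.0202 for Mtkl). CG16704 was the most abundant, at 8.40 to 4713 normalised CPM in Shal-labelled libraries (median 713) and 67.0 to 296 in the others (median 129). CG32115 had the largest fold, but it held 245, 23.9 and 45.3 in only 3 Shal-labelled libraries and under 0.3 in the other 3, and no count in 5 of the other arm. Its fold change depends on those zeros and is no bound. Of the 10, 5 have a longest annotated transcript of under 400 bases: CG34291 (267), CG43114 (278), CG34200 (321), CG16704 (350) and Mtkl (398).

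Lower in the Shal-labelled libraries were rdgBbeta, a phosphatidylinositol transfer protein, dgrn, a SUMO-targeted ubiquitin ligase, and Jhbp2, named as a juvenile hormone binding protein. The gene rdgBbeta (chromosome 2R, 17695776 to 17698362) held 0.812, 7.45 and 0 normalised CPM in Shal RNAi and 0, 6.74 and 12.1 in Notch+Shal RNAi, against 57.2, 49.3 and 16.5 in control and 58.2, 46.5, 38.4 and 19.99 in Notch RNAi. All 6 lay below all 7, and its log2 fold change was -3.22 (SE 1.14, adjusted p = 0.999 in edgeR). It overlaps an antisense RNA, and no source used here says whether counting used strand.

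The gene dgrn ran from 4.46 to 41.8 normalised CPM in Shal-labelled libraries (median 13.9) and from 38.4 to 105 in the others (median 57.0), and 5 of the 6 lay below all 7. Jhbp2 ran from 1.19 to 32.7 (median 11.2) against 9.58 to 777 (median 54.9), and Notch RNAi 1 alone gave the highest value. Its log2 fold change was -3.08 (SE 0.82), near -3.40 with and -2.70 without Notch RNAi. A pair of genes was near 0 in the Shal RNAi group. The Golgi UDP-galactose transporter gene senju held 0.266 to 0.406 there and 18.4 to 48.2 in Notch+Shal RNAi, against 20.1 to 44.9 in control and 30.7 to 184 in Notch RNAi. CG14109 held at most 0.266 in Shal RNAi and 8.06 to 16.5 in Notch+Shal RNAi, against 8.38 or more in each of the other libraries.

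The other 5 were rdgA, a diacylglycerol kinase, the small heat shock protein gene Hsp67Bc, the C-type lectin gene Lectin-galC1, the DNA damage clamp gene Hus1-like and CG31937, with log2 fold changes of -4.05 to -2.25. Their arms overlapped. Among the 10 lower genes DESeq2 called Jhbp2, CG14109, senju and rdgA (adjusted p = 0.0128 to 0.0420). Hsp67Bc ran from 58.6 to 399.8 normalised CPM in the Shal-labelled libraries and from 72.9 to 4954 in the others, where Notch RNAi 1 stood far above the rest.

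Complete separation of the arms was rare. No gene had all 6 Shal-labelled libraries above the 7 others, and 4 of 8908 (0.0449%) had all 6 below: rdgBbeta, RIOK2, CAH1 and sqh, named here after their values were seen. RIOK2, a kinase of small ribosomal subunit maturation, held 0 to 1.84 normalised CPM in Shal-labelled libraries and 5.48 to 27.1 in the others (log2 fold change -4.78, adjusted p = 0.999 in edgeR), and DESeq2 called it lower (adjusted p = 0.0202). CAH1, a carbonic anhydrase, held 0 to 1.18 against 1.30 to 22.8, close to the limit of 3 counts, which is 0.322 to 0.793 CPM by library. The separation of sqh, the regulatory light chain of nonmuscle myosin, was narrow in size but lay at a high level. It held 322, 483 and 365 in Shal RNAi and 468, 489 and 333 in Notch+Shal RNAi, against 526, 587 and 567 in control and 769, 509, 524 and 636 in Notch RNAi (log2 fold change -0.51, unadjusted p = 0.161).

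The potassium channels related to Shal lay on both sides of 0. Of 11 voltage-gated potassium channel genes and partners, 5 were higher and 6 lower (median -0.07, against -0.05 over all genes), and 0 were called. Sh, the Shaker channel, held 1723, 1381 and 2003 normalised CPM in Shal RNAi and 696, 377 and 779.8 in Notch+Shal RNAi, against 1197, 726 and 719 in control and 1830.1, 1686, 989 and 578 in Notch RNAi. Shal RNAi lay above control in all 3 libraries, Notch+Shal RNAi overlapped Notch RNAi, and the main effect was -0.09 (SE 0.48, 95% interval -1.09 to 0.90). The contrasts were -1.04 with and 0.95 without Notch RNAi, and their difference of -1.99 had an unadjusted p of 0.0186 in edgeR (lowest adjusted p over all genes 0.554).

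Shab, a delayed rectifier, ran from 60.9 to 261 normalised CPM in Shal-labelled libraries (median 148) and from 32.9 to 137 in the others (median 63.1), a log2 fold change of 0.69 (SE 0.54), at -0.10 with and 1.57 without Notch RNAi. The ether-a-go-go channel eag had 0.76 (SE 0.91), at 0.15 with and 1.45 without. Shaw had 0.17 (SE 1.07), and sei, an ERG-type channel, -0.07 (SE 0.69), at -0.54 with and 0.45 without. Over the whole list 3 of 11 genes were higher with Notch RNAi (median -0.40) and 8 of 11 without it (median 0.45). The lowest p of the list was that of CASK, a membrane-associated scaffold kinase, with 37.3 to 406 normalised CPM (median 156) against 40.2 to 102 (median 84.3). Its log2 fold change was 1.18 (SE 0.53, adjusted p = 0.999 in edgeR), and 0.56 without Notch+Shal RNAi 2. Among calcium-activated potassium channels and partners 4 of 5 were higher (median 0.43), with medians of -0.43 with and 1.31 without Notch RNAi. The BK-type channel slo ran from 144 to 1048 (median 333) against 43.2 to 438 (median 182), a log2 fold change of 0.79 (SE 0.59), at 0.12 with and 1.52 without Notch RNAi.

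Sodium, calcium and cation channel genes lay mostly above 0: 14 of 16 were higher, where 47.6% of all genes tested were, with a median of 0.37 and 0 called. The lowest p of the list was that of para, the voltage-gated sodium channel. It held 4835, 1064 and 4829 normalised CPM in Shal RNAi and 915, 263 and 565 in Notch+Shal RNAi, against 485, 838 and 294 in control and 593, 1152, 938 and 114 in Notch RNAi. Only Shal RNAi 1 and 3 exceeded the range of the other libraries, and the main effect was 1.17 (SE 0.70, 95% interval -0.30 to 2.64). The contrasts were -0.27 with and 2.73 without Notch RNAi (difference -2.996, unadjusted p = 0.00973 in edgeR). The L-type calcium channel Ca-alpha1D had 0.75 (SE 0.57), at -0.29 with and 1.89 without Notch RNAi. The hyperpolarisation-activated channel Ih had 0.43 (SE 0.52), at -0.36 with and 1.31 without, and cac, the presynaptic calcium channel, 0.06 (SE 0.45), at -0.63 with and 0.82 without. The list's medians were 0.23 with and 0.88 without Notch RNAi. Without Shal RNAi 1 and 3 the list's median was 0.15. With transcript length taken out of each library it was 0.47, against 0.10 over all genes. Among all genes with a longest transcript over 4000 bases, as in para, Ca-alpha1D, Ih and cac, 63.3% were above 0 (median 0.26). The gene para overlaps Cnx14D on the same strand.

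Genes of synaptic vesicle endocytosis lay mostly above 0, in 9 of 14 with and 12 of 14 without Notch RNAi. Of these 14 genes 12 were higher in the main effect, their median log2 fold change being 0.73 (0.54 with and 1.30 without Notch RNAi), and 3 had an unadjusted p under 0.05. The median was between 0.64 and 0.92 in all 28 alternatives run. It was 0.64 without Shal RNAi 1 and 3, 0.79 without Notch RNAi 4 and Notch+Shal RNAi 3, and 0.79 with transcript length taken out. These alternatives reuse the same libraries. Other lists also kept their sign in all of them, such as active zone and release genes (0.29 to 0.65) and motoneuron markers (0.21 to 0.92). None of the 14 endocytosis genes was called. The summed level of their list overlapped: 1354 to 3342 CPM in Shal-labelled libraries (median 2131) against 1295 to 2121 (median 1771). The 9 motoneuron markers tested were also all higher (median 0.73, at 0.15 with and 1.39 without Notch RNAi). Their summed level was 2064 to 8136 CPM against 2279 to 6885. This list is not separate from the others, as VGlut, brp, nSyb and Syt1 are also active zone and release genes. Likewise eve, zfh1 and elav are also on the list of neuronal identity, and wit on that of presynaptic homeostasis. The part of the markers in the synaptic values was not tested.

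Synj, the lipid phosphatase synaptojanin that uncoats vesicles, held 414, 65.1 and 388 normalised CPM in Shal RNAi and 30.4, 119 and 8.56 in Notch+Shal RNAi, against 48.9, 32.6 and 19.5 in control and 16.5, 24.4, 36.3 and 23.0 in Notch RNAi. Of the Shal-labelled libraries 4 lay above all others and Notch+Shal RNAi 3 below them (log2 fold change 2.04, SE 0.67, adjusted p = 0.999 in edgeR). The dynamin gene shi, whose product cuts vesicles from the membrane, held 259.7 to 1062 (median 761) against 248 to 685 (median 394). There 4 Shal-labelled libraries lay above the range of the others, and the log2 fold change was 0.85 (SE 0.40). Eps-15, an endocytic scaffold, had 1.70 (SE 0.79), Amph (amphiphysin) 2.11 (SE 1.20), EndoA (endophilin A) 1.32 (SE 0.92) and Dap160 (intersectin) 0.99 (SE 0.57). EndoA split by contrast, at -0.66 with and 3.45 without Notch RNAi. Clc, the clathrin light chain, lay the other way at -0.35 (SE 0.37).

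Of 25 active zone and release genes, 22 were higher (median 0.47) and 2 had an unadjusted p under 0.05. With transcript length taken out the median was 0.46. With Notch RNAi 14 of the 25 were higher and their median of 0.15 lay close to that of all genes (0.14), while without it 21 were higher (median 1.16). Syn, which encodes synapsin, the protein that tethers the vesicle reserve, held 434, 314 and 241 normalised CPM in Shal RNAi and 56.5, 456 and 75.9 in Notch+Shal RNAi, against 44.6, 114 and 52.8 in control and 28.9, 167, 35.01 and 49.9 in Notch RNAi. The 3 Shal RNAi libraries and Notch+Shal RNAi 2 lay above all others, while Notch+Shal RNAi 1 and 3 lay among them. Its log2 fold change was 1.83 (SE 0.58, adjusted p = 0.999 in edgeR), 1.48 with and 2.23 without Notch RNAi. Sap47, a synapse-associated protein gene, ran from 419.5 to 2547 (median 1025) against 309.8 to 738 (median 409.8), a log2 fold change of 1.34 (SE 0.48). Without Notch+Shal RNAi 2 the log2 fold changes were 1.23 for Syn, 0.79 for Sap47 and 0.80 for Eps-15. The scaffold gene brp (Bruchpilot) had 0.69 (SE 0.39) and the SNARE gene Syx1A 0.35 (SE 0.49). The release scaffold Rim lay lower at -0.73 (SE 0.46), and unc-13 at 0.01 (SE 0.43).

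Of 14 genes of neuronal identity and transcription factors 10 were higher (median 0.68, at 0.29 with and 1.44 without Notch RNAi), with none at an unadjusted p under 0.05. Of 34 cell recognition and adhesion genes 21 were higher (median 0.24), of 27 neurotransmitter receptors 19 (0.21), of 20 axonal transport and microtubule genes 14 (0.40), and of 17 activity-regulated genes 9 (0.20). The lowest p among them was that of dpr9, a cell-surface immunoglobulin protein of synaptic partner recognition. It held 47.0 to 545 normalised CPM (median 327) against 65.4 to 145 (median 119.6), and 5 Shal-labelled libraries lay above all others (log2 fold change 1.57, SE 0.48, adjusted p = 0.999 in edgeR). Nmdar1, the obligatory NMDA receptor subunit, held 17.8 to 107 (median 70.7) against 1.31 to 36.1 (median 8.51), and 4 lay above all others (2.07, SE 0.75). The microtubule protein tau had 1.22 (SE 0.54), the cell-surface receptor Toll-6 1.26 (SE 0.55), dpr1 1.13 (SE 0.52) and kay, the fly Fos, 1.11 (SE 0.52). Of these, Toll-6 lay at 0.25 with and 2.38 without Notch RNAi, and kay was 0.65 without Notch+Shal RNAi 2.

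Of 30 Notch pathway genes 15 were higher and 15 lower (median -0.04). Of these numb, an inhibitor of Notch that is split unequally at divisions, had the lowest p. It held 28.8, 80.8 and 144 normalised CPM in Shal RNAi and 56.0, 34.8 and 20.8 in Notch+Shal RNAi, against 3.73, 2.29 and 19.8 in control and 2.696, 0.747, 9.40 and 61.3 in Notch RNAi. As with w, all 6 lay above 6 of the others and Notch RNAi 4 lay among them, and the log2 fold change was 2.09 (SE 0.99, adjusted p = 0.999 in edgeR). Of 11 genes of the RNA interference machinery 4 were higher and 7 lower (median -0.21).

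**Figure D3:**
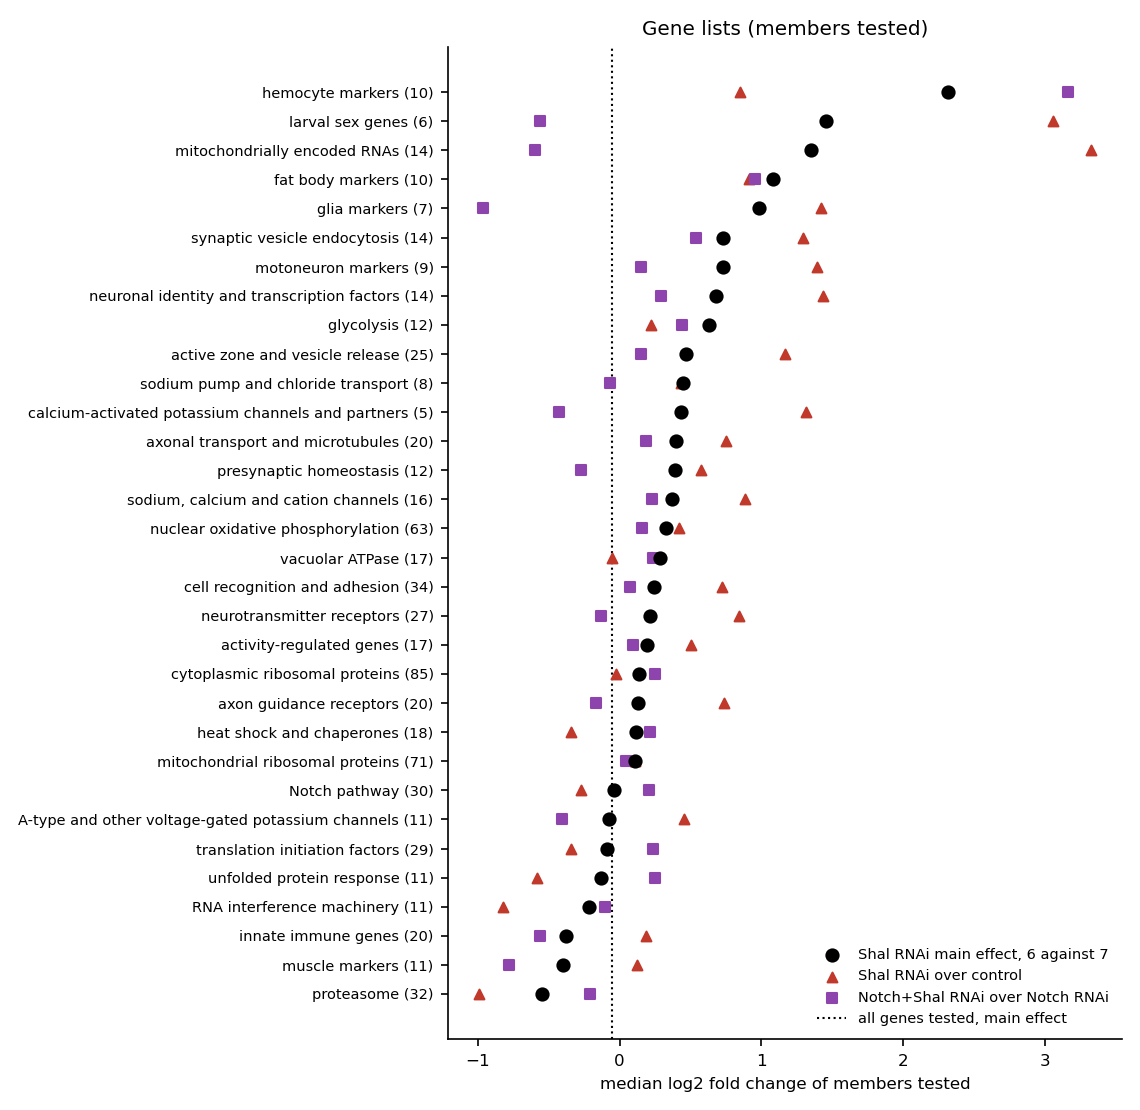
Median log2 fold change of the tested members of each gene list with at least 5 of them, for the main effect (black circles), Shal RNAi over control (red triangles) and Notch+Shal RNAi over Notch RNAi (purple squares), with the number of members in brackets and a dotted line at the median of all genes (-0.05). The mitochondrially encoded RNAs lie at -0.60 with and 3.33 without Notch RNAi, whereas fat body markers (0.96 with and 0.91 without) and synaptic vesicle endocytosis (0.54 with and 1.30 without) lie above 0 in both.

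Mitochondrially encoded RNAs, which specify respiratory chain subunits and mitochondrial ribosomal RNA, were higher in all 14 tested members (median 1.35), and 0 were called. The contrasts differed: the median was -0.60 with and 3.33 without Notch RNAi, 0.10 without Shal RNAi 1 and 3, and -0.28 without Notch+Shal RNAi 3 as well. They took 13.5, 5.36 and 11.5% of counts in Shal RNAi and 2.26, 0.893 and 4.69% in Notch+Shal RNAi, against 2.38 to 2.60% in control and 2.19 to 5.83% in Notch RNAi. The 1 member at an unadjusted p under 0.05 was mt:ND3 (log2 fold change 1.72, SE 0.72). It held 234, 48.3 and 484 normalised CPM in Shal RNAi, where Shal RNAi 2 lay below control 3 at 68.4. In Notch+Shal RNAi it held 8.31, 4.29 and 48.5, against 4.41 to 14.9 in Notch RNAi. The complex I gene mt:ND1, not chosen by p, held 5491, 991 and 5134 in Shal RNAi and 163, 53.6 and 788 in Notch+Shal RNAi. It held 214 to 276 in control and 158 to 916 in Notch RNAi. Nuclear-encoded respiratory chain and ATP synthase genes were higher in 45 of 63 (median 0.33), 5 at an unadjusted p under 0.05. The lowest p was that of ox, a small subunit of complex III, with 48.7 to 1967 (median 363) against 67.7 to 214 (median 177) and a log2 fold change of 1.77 (SE 0.58). Glycolysis genes were higher in 9 of 12 (median 0.63), with a median of -0.01 without Notch+Shal RNAi 2.

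Proteasome subunits had the lowest median of the 36 lists, with 29 of 32 below 0 (median -0.55). Of the 32, 24 had the same sign in both contrasts, at medians of -0.21 with and -0.99 without Notch RNAi. Their main-effect median was -0.35 with transcript length taken out, where that of all genes was 0.10. It was -0.21 without Shal RNAi 1, Shal RNAi 3 and Notch+Shal RNAi 3. The summed level of the proteasome list was 4743, 9650 and 3590 CPM in Shal RNAi and 13706, 14176 and 9815 in Notch+Shal RNAi. It was 9803 to 16152 in control and 11946 to 16184 in Notch RNAi. In CPM only Shal RNAi 1, 2 and 3 lay below the lowest other library, control 2. For Shal RNAi 2 the gap was narrow (9650 against 9803), and scaling by the TMM factors (1.04 and 1.13) would turn that order. Without Shal RNAi 1 and 3 the median fold change of the list was -0.23. Rpn12, a lid subunit, had the lowest p, with 68.2 to 238 normalised CPM (median 168) against 217 to 356 (median 288), a log2 fold change of -0.89 (SE 0.40, adjusted p = 0.999 in edgeR). Sem1, the smallest subunit, lay the other way at 0.88 (SE 0.64). Heat shock genes went both ways, 10 higher and 8 lower. Hsp70Bb held 6699, 1539.7 and 5445 in Shal RNAi and 1857, 920.1 and 788 in Notch+Shal RNAi, against 320.0 to 597 in control and 554 to 1632 in Notch RNAi. Its contrasts were -0.01 with and 3.29 without Notch RNAi. Hsp70Ab, a near-identical copy whose reads the counting may split, held 1.34 to 39.0 against 0 to 6.49.

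By the median fold change of their members, hemocyte and fat body markers were also higher, and in both contrasts, while their summed levels overlapped. All 10 hemocyte markers lay above 0 (median 2.32; 3.16 with and 0.85 without Notch RNAi), 5 at an unadjusted p under 0.05 and 0 called in edgeR. DESeq2 called Sr-CI (adjusted p = 4.54e-04) and He (adjusted p = 0.0422), and edgeR without the filter on low counts called He and PPO1. Their summed level was 838, 118 and 809.7 CPM in Shal RNAi and 499, 136 and 2328 in Notch+Shal RNAi, against 149, 388 and 256 in control and 285, 66.1, 145 and 261 in Notch RNAi. Of the Shal-labelled libraries 4 exceeded every other library, and the other 2 were among the lowest. NimC1, a phagocytosis receptor of plasmatocytes, had counts in 7 libraries and Sr-CI in 9. He, the blood cell marker Hemese, ran from 5.87 to 1188 normalised CPM (median 203) against 10.6 to 107 (median 35.8), with a log2 fold change of 3.13 (SE 0.93). Without Shal RNAi 1, Shal RNAi 3 and Notch+Shal RNAi 3 its value was -0.94. PPO1, a prophenoloxidase of crystal cells, had 2.48 (SE 0.76) and the clotting factor Hml 2.47 (SE 0.99).

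All 10 fat body markers lay above 0 as well (median 1.08), 3 at an unadjusted p under 0.05. The lipoprotein gene apolpp held 40.7 to 3129 normalised CPM (median 1165) against 273 to 773 (median 399.5), and 5 Shal-labelled libraries lay above all others. The list's sum was 2067 to 20379 CPM in Shal-labelled libraries and 2273 to 16510 in the others. It was 11451, 10051 and 6626 in Shal RNAi against 9789, 16510 and 5468 in control. In Notch+Shal RNAi it was 15737, 2067 and 20379, against 6061, 2273, 9276 and 9777 in Notch RNAi. The part of these cells' RNA in the other values was not tested. Muscle markers lay the other way, with 10 of 11 lower (median -0.40, at -0.78 with and 0.12 without Notch RNAi). Of glial markers 4 of 7 were higher (median 0.98, at -0.96 with and 1.42 without Notch RNAi). Their defining marker repo had counts in 2 libraries and alrm in none, but Gs2 had counts in all 13 (up to 755 CPM), Eaat1 in 8 (up to 61.9) and moody in 8 (up to 76.6, in Shal RNAi 3). Their summed level was 209 to 775 CPM in Shal-labelled libraries and 347 to 1100 in the others, and their part in the other values was not tested. The dosage compensation RNA lncRNA:roX1 (chromosome X), made in males, ran from 54.9 to 4221 normalised CPM in Shal-labelled libraries and from 6.17 to 2364 in the others. In Shal RNAi it held 155, 1032 and 4221, above every control library at 21.4, 12 and 6.17. In Notch+Shal RNAi it held 3509, 1023 and 54.9, against 2058, 30.8, 2364 and 45.7 in Notch RNAi. It was called by edgeR without the filter on low counts (adjusted p = 0.00155) and not with it. Its part in the other values, including the contrast of Shal RNAi with control, was not tested. It was named after its values were seen.

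**Figure D4:**
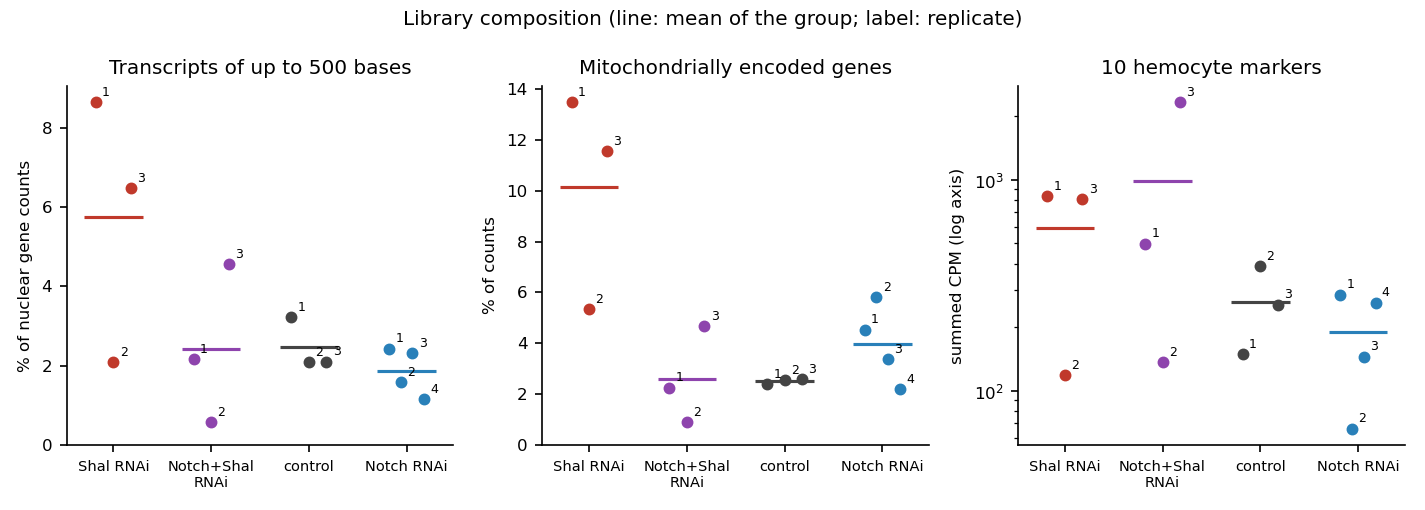
Share of nuclear gene counts from transcripts of up to 500 bases, share of counts from mitochondrially encoded genes, and summed CPM of 10 hemocyte markers (log axis) in each library, with points numbered by replicate and a line at the mean of each group. Shal RNAi 1, Shal RNAi 3 and Notch+Shal RNAi 3 are the 3 highest for short transcripts (8.66, 6.49 and 4.57%) and for hemocyte markers (838, 809.7 and 2328 CPM).

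The main effect varied with transcript length. Genes whose longest annotated transcript is at most 500 bases had a median log2 fold change of 0.99 (284 genes), and 13.03% of them were higher at an unadjusted p under 0.05, where 2.58% of all genes were. The median was 0.19 at 501 to 1000 bases, -0.36 at 1001 to 2000 (2786 genes), -0.03 at 2001 to 4000 and 0.26 above 4000. Of the genes above 4000 bases 63.3% lay above 0, and para (15578), Syn (5803), Sap47 (5972) and Synj (4638) are among them. Short transcripts took 8.66, 2.09 and 6.49% of nuclear counts in Shal RNAi and 2.16, 0.578 and 4.57% in Notch+Shal RNAi, against 2.08 to 3.23% in control and 1.17 to 2.43% in Notch RNAi. Without the 3 libraries with the highest shares the median of the short genes was -0.39, and with a length curve taken out of each library, an alternative chosen after seeing the data, it was 0.14.

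Short and longer members, by annotated length, can be compared within the ribosome. Of 85 cytoplasmic ribosomal protein genes 48 were higher (median 0.14), and 4 had an unadjusted p under 0.05: RpL41, RpL38, RpL39 and RpL29. The longest transcripts of RpL39 and RpL41 have 288 and 320 bases. That of RpL38 (log2 fold change 1.38, SE 0.62) has 1013, which places it in the class with a median of -0.36. Which annotated transcript of a gene was expressed was not tested. RpL41 held 11167, 1353 and 7013 normalised CPM in Shal RNAi and 1394, 273 and 3403 in Notch+Shal RNAi, against 814 to 1385 in control and 540.1 to 1732 in Notch RNAi. Shal RNAi 1, Shal RNAi 3 and Notch+Shal RNAi 3 lay above all others and Notch+Shal RNAi 2 below them. Without those 3 the log2 fold change of RpL41, 1.43 (SE 0.61), became -0.25. That of RpL38 became -0.46 and that of RpL39 -0.20. Of 71 mitochondrial ribosomal protein genes 40 were higher (median 0.11), with mRpL33 (349 bases) at 2.19 (SE 0.69) and mRpL34 (327 bases) at 1.87 (SE 0.63). Of these, mRpL33 held 1451, 705 and 416 in Shal RNAi 1, Shal RNAi 3 and Notch+Shal RNAi 3, and 20.7 to 99.2 in the other Shal-labelled libraries, against 48.3 to 110.0 in the rest.

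**Figure D5:**
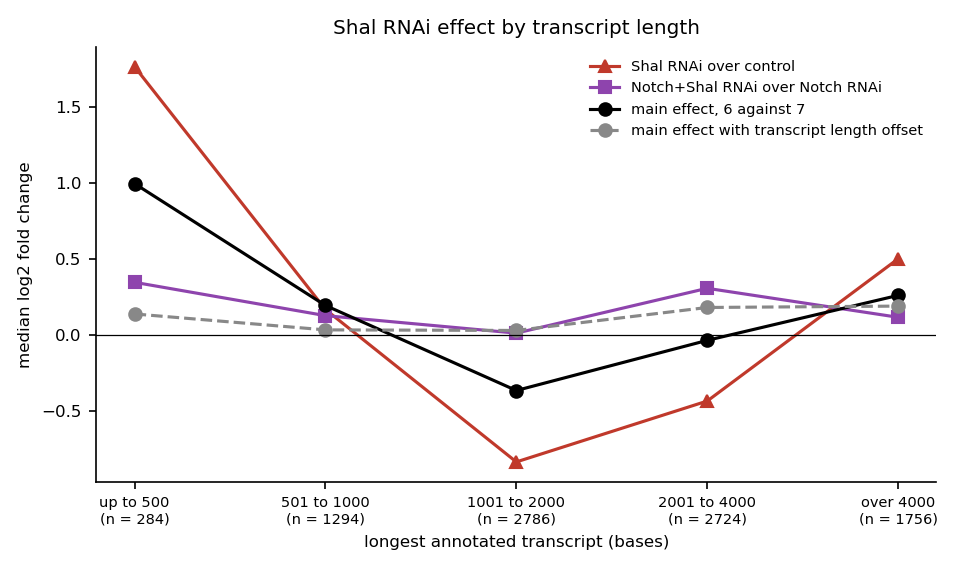
Median log2 fold change of the genes in 5 classes of longest annotated transcript, for Shal RNAi over control (red), Notch+Shal RNAi over Notch RNAi (purple), the main effect (black) and the main effect with transcript length taken out of each library (grey, dashed). The main effect lies at 0.99 for transcripts of up to 500 bases and at -0.36 for 1001 to 2000 bases, and the corrected curve between 0.03 and 0.19.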

How the data were processed

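Poly(A) RNA of patched MN1-Ib motoneurons was sequenced in 13 libraries: 3 Shal RNAi, 3 Notch+Shal RNAi, 3 control and 4 Notch RNAi. The deposited table holds the authors' raw counts per gene (17753 gene IDs, of which 4230 had no count). The submitters' processing notes name STAR 2.7.0e, edgeR 3.26.7, limma 3.40.6, R 3.6.1 and the build BDGP6; their roles, the annotation release, strand use and the handling of duplicate reads were not given in the sources used here. Symbols and positions come from annotation BDGP6.54, which matched 17626 IDs.

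Genes were filtered with filterByExpr (minimum count 10, minimum total 15), which left 8908, and scaled by TMM. Counts were tested with edgeR 4.0.16 in R 4.3.3 (robust quasi-likelihood, Notch RNAi status as covariate, Benjamini-Hochberg, threshold 0.05). A fit with 1 mean per group gave the separate contrasts and the interaction. The code was tested on simulated data. Alternatives used DESeq2 1.42.0, limma 3.58.1, other scalings and filters, and subsets of libraries. Amplified reads carry no molecular identifiers here, so the floor of 3 counts covers counting error only.

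Named genes were Shal, N and nerfin-1, the 10 genes per direction with the lowest p whose higher arm averaged 20 CPM or more with a count in each of its libraries, up to 3 members per direction of each of 36 lists at an unadjusted p under 0.05, and 10 excitability genes. Members and lists were chosen with earlier results of these data known.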

Additional observations from a re-analysis of the deposited data

Results flagged for a closer look

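Single libraries that stood far from the rest of their group were looked for in 216 groups of values, and 19 were found, where chance gives about 1 in 20 groups. For each value the groups were the 6 Shal-labelled libraries, the 7 others, and the Notch RNAi libraries alone. The Notch RNAi libraries were thus looked at both alone and within the 7, so these groups are not independent. Control, Shal RNAi and Notch+Shal RNAi were not looked at alone. Notch RNAi 4 accounted for most of the 19, some of them found in both groups that hold it. Among the Notch RNAi libraries it was the lowest for Shal (14.8 normalised CPM), CG31937 (37.0) and mt:ND3 (4.41) and the highest for N (209). It was the highest for CG32115 (1.04) and Hsp70Ab (6.49), both among the Notch RNAi libraries and among all 7 libraries without a Shal label. Among those 7 it was the lowest for ox (67.7), UQCR-6.4 (59.7) and COX7C (217). Notch RNAi 1 was the highest of its group for Hsp67Bc (4954) and the lowest for Hml (0.284). Notch RNAi 3 had the lowest total count, 3783100, within its group and among the 7.

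Among the 6 Shal-labelled libraries, Notch+Shal RNAi 2 stood low for CG43114 (0.875 normalised CPM), apolpp (40.7) and Lsp1beta (161), and Notch+Shal RNAi 3 stood low for dpr9 (47.0).

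For 10 of the 67 named genes the Shal RNAi effect with Notch RNAi differed from that without it at an unadjusted p under 0.05 in edgeR. Over all genes tested 710 of 8908 (7.97%) did, and many of the named genes were chosen by low p in these same data. None passed adjustment (lowest adjusted p over all genes 0.554). The differences (log2, with minus without Notch RNAi) were positive for senju (5.14) and CG14109 (6.04). They were negative for Hsp70Bb (-3.29), para (-2.996), UQCR-6.4 (-2.79), mRpS21 (-2.70), RpL39 (-2.26), Ca-alpha1D (-2.18), Toll-6 (-2.13) and Sh (-1.99).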

How the results depend on the processing

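Without the low-count filter edgeR called 54 genes (32 higher, 22 lower) and 65 for the interaction; DESeq2 called 19 (12 higher, 7 lower) and 124. Leaving out single libraries gave 0 to 1 called genes (0 to 1 higher, 0 lower) and 249 to 638 at an unadjusted p under 0.05. The 1 gene was w, called without Notch RNAi 4, and 1 gene (1 higher), again w, was called without Notch RNAi 4 and Notch+Shal RNAi 3. The cause of these differences was not tested. The other alternatives called 0.

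Of 1874 values of named genes under the alternatives, 1801 kept direction and side of the threshold, 30 passed it and 43 turned sign. Over single libraries left out, N ran from -2.24 to 0.17, Sh from -0.30 to 0.20, Shaw from -0.46 to 0.64, sei from -0.33 to 0.23 and cac from -0.12 to 0.25. Without Shal RNAi 1 and 3, N was 0.29, Shaw -0.16, cac -0.0301 and Ca-alpha1D -0.076. With sample quality weights Sh was 0.17 and Shaw -0.37, and with no Notch RNAi covariate Sh was 0.072 and sei 0.095. With the length offset Shaw was -0.10, sei 0.066 and cac -0.081. Without Notch RNAi 4 and Notch+Shal RNAi 3, sei was 0.15. Without Shal RNAi 1, Shal RNAi 3 and Notch+Shal RNAi 3, CG34200 was -0.092, mt:ND3 -0.40, He -0.94, Lsp2 -0.22, RpL41 -0.25, RpL38 -0.46, RpL39 -0.20, mRpL33 -0.15, mRpS21 -0.22, Shaw -0.13 and sei 0.36. The length offset and both of these last subsets were chosen after seeing the data.

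Whether replicate numbers mark a shared batch was not tested. Of 18 same-number pairs, 5 had correlated deviations over 0.1 (range -0.18 to 0.24), and 7 of 13 libraries matched best with their own number. With the replicate block 0 genes were called (309 at an unadjusted p under 0.05), w had 5.11 (adjusted p = 0.0531 in edgeR) and cac -0.045.

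Depth of 3783100 to 9319116 counts sets the floor, and the spread between reactions (median SE 1.03) sets the size of difference that can be seen.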
